A study of Mus musculus with 24 samples.

Results

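Pericytes and vascular smooth muscle cells, together called mural cells, wrap the endothelial tube of a vessel. Endothelial cells secrete PDGF-BB, the product of Pdgfb, and recruit pericytes that carry its receptor PDGFRβ, the product of Pdgfrb. Notch ligands on the endothelium, among them Dll4, signal to the receptor Notch3 on mural cells and thereby favor their survival and maturation, and a potassium channel sensitive to ATP, built from the pore subunit Kir6.1 (Kcnj8) and the regulatory subunit SUR2 (Abcc9), sets the membrane potential and tone of mural cells. The genes described here are 9 of the 55401 rows of a raw count table, chosen as genes that mark pericytes or attract them: the ligand Pdgfb, the receptors Pdgfrb and Notch3, the proteoglycan Cspg4 (NG2), the channel subunits Kcnj8 and Abcc9, the G protein signaling regulator Rgs5, and the mitochondrial proteins Higd1b and Ndufa4l2. Each symbol matched 1 row by its Ensembl identifier in GENCODE M21, and all 9 passed the filter on low counts in each of the 14 comparisons.

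The RNA came from 24 tumors grown in male C57/BL6 mice aged 8 to 10 weeks from the TC2Ras prostate adenocarcinoma line, a TRAMP-C2 derivative with activated H-Ras and the mouse androgen receptor. The 4 subcutaneous tumors, harvested after 1 week, carried treatment with an empty vector (control, n = 2) or a vector for IL-27, a cytokine, delivered as a plasmid to muscle with ultrasound (n = 2). The 20 intratibial tumors, grown in the tibia from TC2Ras-Luc cells, formed 4 treatment groups: empty vector and vehicle (control), IL-27 vector and vehicle (IL-27), empty vector and cabozantinib (cabo), and IL-27+cabo, each with 3 mice taken on day 14 and 2 taken at the end of the study (EOS), when a mouse reached its ethical end point. The day on which each EOS tumor was taken is not given. The paper reports longer survival in the cabo and IL-27+cabo groups than in control, so time of harvest and treatment cannot be told apart at EOS. Cabo is a tyrosine kinase inhibitor of c-MET and the VEGF receptors, and was dosed daily by oral gavage over the first 2 weeks only, so the EOS tumors labelled cabo or IL-27+cabo were taken after dosing had ended. The tumors came from a single cell line, and RNA was taken from a section of each without separating its cell types, so the part of the tumor sampled may differ between libraries. Nothing states that the 2 subcutaneous tumors of a group came from separate mice, and p-values among them measure the spread between these samples, which may be technical.

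Libraries held 63729005 to 83782258 counts. Levels are given as CPM, the counts of a gene scaled to the library total, after TMM normalization, which was run apart for the subcutaneous and the intratibial tumors. Fold changes are log2 values from edgeR's quasi-likelihood test, given with their standard error (SE), and a gene was called when its adjusted p over all genes tested was below 0.05. No group was large enough to screen for outlying tumors. Day 14 IL-27+cabo mouse 20 had the lowest total count, the highest mean of the skeletal muscle markers (7.37 on the log2 CPM scale), the lowest Notch3 and Pdgfrb and the highest Ndufa4l2 of the 20 intratibial tumors. Skeletal muscle RNA was present in amounts that differed between groups, and its values are given below for the day 14, EOS and subcutaneous groups.

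Per kilobase of transcript, the receptor Pdgfrb and Rgs5 stood far above the other members. In the 3 day 14 control tumors, Rgs5 was at 29.7 ± 4.76 CPM per kb (SD) and Pdgfrb at 26.4 ± 7.85, and the ranges of these 2 genes overlapped. Notch3 (4.60 ± 1.43) and Pdgfb (4.35 ± 0.740) followed, overlapped with each other, and lay below every Pdgfrb value. Cspg4 (2.31 ± 0.142), Ndufa4l2 (2.31 ± 0.921), Kcnj8 (2.26 ± 0.757) and Abcc9 (1.55 ± 0.400) formed the next tier, in which each gene overlapped its neighbor. Higd1b was the lowest at 0.352 ± 0.187 CPM per kb and did not overlap Abcc9. Higd1b is taken as one of the more selective pericyte genes. Its counts ran from 0 to 62 in the intratibial tumors, so no change of moderate size could be detected for it. It had no count in day 14 IL-27 mouse 6 and in EOS IL-27 mouse 10, where 3 counts would equal 0.0464 and 0.0425 CPM.

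The members did not vary alike among the 20 intratibial tumors. Pdgfrb spanned a 3.47-fold range (58.3 to 202 CPM), Pdgfb a 3.83-fold range (7.12 to 27.3), Cspg4 a 4.42-fold range (9.38 to 41.5) and Rgs5 a 4.58-fold range (65.4 to 299). Abcc9 spanned a 7.52-fold range (3.99 to 30.0), and Notch3, Ndufa4l2 and Kcnj8 ranges of 10.6-, 10.8- and 11.2-fold. For Notch3 and Ndufa4l2 1 end of the range was mouse 20 of the day 14 IL-27+cabo group. For Kcnj8 the low end was a whole set of tumors, those taken on day 14 from mice given cabo.

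**Figure D1:**
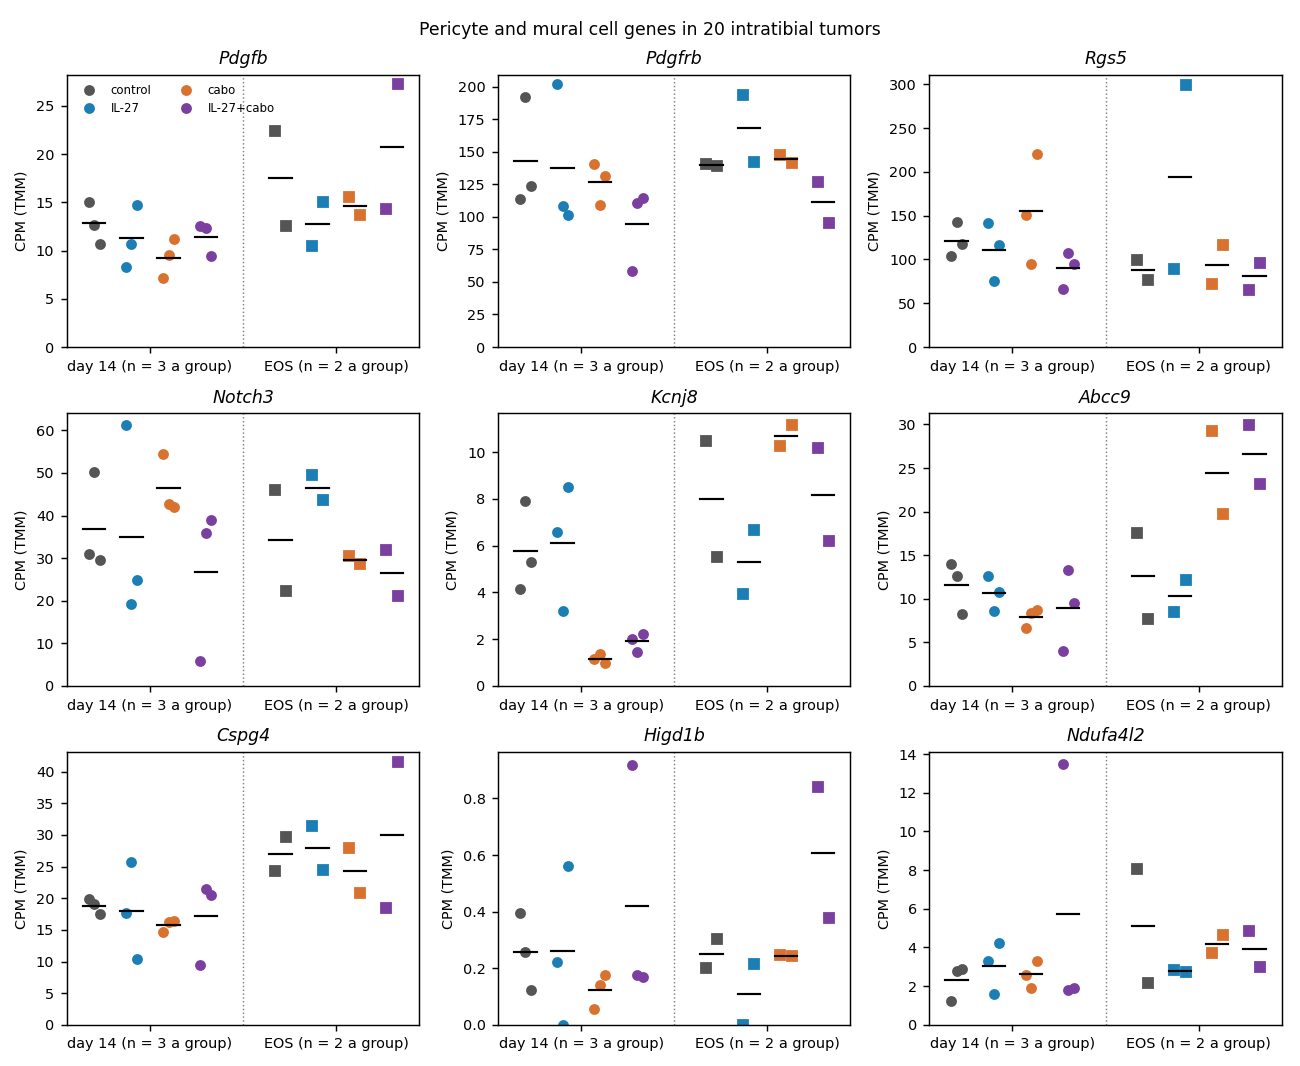
CPM of each of the 9 genes (vertical axes, linear, each from 0) in the 20 intratibial tumors, with day 14 groups (circles, n = 3) left and EOS groups (squares, n = 2) right of the dotted line, colored by treatment, and bars at the group means. In the Kcnj8 panel the 6 day 14 tumors with cabo lie between 0.991 and 2.22 CPM, under the other 14 tumors.

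On day 14, the member that moved with cabo was Kcnj8. Its level was 4.12, 7.89 and 5.29 CPM in the 3 control tumors and 6.58, 3.19 and 8.51 CPM in the 3 IL-27 tumors. It was 1.15, 1.37 and 0.991 CPM in the 3 cabo tumors and 2.02, 1.45 and 2.22 CPM in the 3 IL-27+cabo tumors. The highest of the 6 tumors with cabo was below the lowest of the 6 without it. Over both vectors Kcnj8 was 4.03-fold lower with cabo (log2 −2.01, SE 0.28, edgeR adjusted p = 0.00735). It was the only 1 of the 9 members called in that comparison, in which 0.779% of 19899 genes were called in either direction and 0.442% were called lower.

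Taken against control alone, Kcnj8 was 5.01-fold lower with cabo (log2 −2.32, SE 0.29, edgeR adjusted p = 0.0125), again as the only member of 9, where 1.89% of 18627 genes were called and 0.693% were called lower. With IL-27+cabo it was 3.00-fold lower than in the same control tumors (log2 −1.59, SE 0.38), which did not pass the test (edgeR adjusted p = 0.295, unadjusted p = 0.0042). In that comparison no member was called and 0.064% of 18750 genes were, while DESeq2 called Kcnj8 (adjusted p = 0.0118). The difference between the cabo changes in the presence and absence of IL-27 was 0.62 (SE 0.54, edgeR adjusted p = 0.952), and no gene was called in that test, which had 1.88% of genes at an unadjusted p below 0.05. The call against control was lost when any 1 of the 3 cabo tumors was left out (adjusted p = 0.0510 to 0.0741), with log2 values of −2.45 to −2.22. The call over both vectors was kept in all 12 such refits, but both calls were lost with the mean of the skeletal muscle markers as a covariate, at a difference of −2.57 over both vectors (edgeR adjusted p = 0.0506) and of −3.47 against control alone (edgeR adjusted p = 0.422). With that covariate 0.0653% of 19899 genes were called over both vectors and 0% of 18627 against control. The muscle mean itself was 5.73 in cabo and 6.66 in IL-27+cabo, beside 0.63 in control and 2.88 in IL-27. The cell types were not separated, so fewer mural cells and less RNA per mural cell cannot be told apart.

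Abcc9, which encodes the partner subunit of the same channel and lies beside Kcnj8 on chromosome 6, was not called on day 14. Its values were 14.0, 12.7 and 8.24 CPM in control, 12.6, 8.56 and 10.8 CPM in IL-27, 6.60, 8.37 and 8.73 CPM in cabo and 13.3, 9.50 and 3.99 CPM in IL-27+cabo. The groups overlapped, and the difference over both vectors was −0.43 (SE 0.26, edgeR adjusted p = 0.564). The reads of Abcc9 may include those of the antisense gene 5330439B14Rik, since the strand setting of the counting is not given in the sources used here.

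Kcnj8 lies at chr6:142564837-142571614 and Abcc9 at chr6:142587862-142702315, both on the minus strand of GRCm38 (GENCODE M21). The 250 bases before the RefSeq start of each are shown, from RefSeq on GRCm38.p6, because these 2 genes carry the changes over time described next. They were searched on both strands for TGGGAA, which is the core bound by RBPJ, the DNA-binding partner of Notch receptors. The search also covered TAAACA, known as the forkhead core. It further covered GGGCGG, which Sp1 proteins bind, and the letters TATAAA, bound by the TBP protein. The RefSeq start of Abcc9 lies downstream of the GENCODE start, and the last 41 bases of its window are inside the gene as GENCODE gives it. Capitals mark matches, and these motifs do not overlap each other in the windows shown.
Kcnj8, chr6:142571615-142571864: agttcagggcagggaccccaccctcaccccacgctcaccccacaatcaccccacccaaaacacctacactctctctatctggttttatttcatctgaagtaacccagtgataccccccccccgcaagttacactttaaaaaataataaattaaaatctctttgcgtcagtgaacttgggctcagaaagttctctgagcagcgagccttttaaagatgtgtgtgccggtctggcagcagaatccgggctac
Abcc9, chr6:142702275-142702524: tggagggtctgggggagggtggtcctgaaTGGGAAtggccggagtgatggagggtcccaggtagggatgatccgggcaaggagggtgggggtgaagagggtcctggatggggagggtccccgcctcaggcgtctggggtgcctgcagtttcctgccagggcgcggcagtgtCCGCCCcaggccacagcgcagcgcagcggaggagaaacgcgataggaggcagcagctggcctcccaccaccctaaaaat
The Kcnj8 window held none of the 4 motifs, 49.2% G and C, and 6 CpG dinucleotides, the median of 32817 promoters of the same length. The Abcc9 window held 66.8% G and C, 12 CpG dinucleotides, 1 RBPJ core at bases 30 to 35 and 1 Sp1 motif on the opposite strand at bases 172 to 177. Of all promoters, 21.6% held the RBPJ core and 32.7% the Sp1 motif, so neither match is rare, and a match is not a binding site.

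At EOS, Kcnj8 was no longer lower in the tumors from mice that had received cabo. It was 5.53 and 10.5 CPM in control, 3.91 and 6.68 CPM in IL-27, 10.3 and 11.1 CPM in cabo and 10.2 and 6.20 CPM in IL-27+cabo. The higher cabo value was the highest of the 20 intratibial tumors. The 4 tumors with cabo overlapped the others, and the difference of 0.52 (SE 0.29) did not pass the test (edgeR adjusted p = 0.408). No gene was called in that comparison by edgeR (0% of 20026), although 16.8% had an unadjusted p below 0.05. The cabo change at EOS exceeded the cabo change on day 14 by 2.51 for Kcnj8 (SE 0.43, edgeR adjusted p = 0.0125). Kcnj8 was the only member of 9 called in this test of the difference, which called 0.292% of 21563 genes and 0.260% in the higher direction. The call was lost without EOS IL-27 mouse 10 (log2 2.35, adjusted p = 0.0750) and without EOS control mouse 13 (log2 2.32, adjusted p = 0.0605).

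From day 14 to EOS within the cabo group, both channel subunits rose. Kcnj8 rose 9.29-fold (log2 3.22, SE 0.20, edgeR adjusted p = 0.00181), and Abcc9 rose 3.15-fold (log2 1.65, SE 0.20, edgeR adjusted p = 0.0156), from 6.60 to 8.73 CPM on day 14 to 29.2 and 19.7 CPM at EOS. In this comparison, which spans the end of dosing, these 2 of 9 members stood beside 2.09% of 19144 genes called, and 0.945% of the 19144 were called higher. The Abcc9 call was lost without day 14 cabo mouse 21 (adjusted p = 0.0709), with no filter on low counts (adjusted p = 0.0607) and with all intratibial groups in 1 fit (adjusted p = 0.249). In the IL-27+cabo group the values were 30.0 and 23.2 CPM at EOS for Abcc9, above every day 14 tumor. The changes there, 2.08 (SE 0.44) for Kcnj8 and 1.57 (SE 0.52) for Abcc9, did not pass edgeR's test (adjusted p = 0.540 and 0.925), in which no gene was called (0% of 19365), against 3.83% at an unadjusted p below 0.05. DESeq2 called Kcnj8 in that group (adjusted p = 0.00492). The sum of 22 skeletal muscle markers also differed between these times. In cabo it was 1567 to 2361 CPM on day 14 and 206 and 1257 CPM at EOS. In IL-27+cabo it was 2022 to 5908 CPM on day 14 and 174 and 345 CPM at EOS.

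Without cabo, neither channel gene was called over time. Kcnj8 differed between EOS and day 14 by 0.48 (SE 0.37, edgeR adjusted p = 0.611) in control and by −0.19 (SE 0.46, edgeR adjusted p = 0.930) in IL-27, and Abcc9 by 0.12 (SE 0.38, edgeR adjusted p = 0.913) in control. No member was called in either of these comparisons, with 0.104% of 19292 genes called in control and 0% of 19078 in IL-27. Rgs5 (−0.47, SE 0.18) and Cspg4 (0.53, SE 0.16) had an unadjusted p below 0.05 in control, as did 13.1% of all genes, and DESeq2 called no member in either. At EOS, Abcc9 was the member with the smallest p for cabo over both vectors, at 29.2, 19.7, 30.0 and 23.2 CPM in the 4 tumors with cabo and 7.68, 17.5, 8.50 and 12.2 CPM in the 4 without. The 2 sets did not overlap, the difference was 2.22-fold (log2 1.15, SE 0.29), and edgeR did not call it (adjusted p = 0.128) whereas DESeq2 did (adjusted p = 0.000701). Over 6 alternative settings the Abcc9 difference ran from 0.65 to 1.16. The excess of its EOS cabo change over that on day 14 was 1.56 (SE 0.43, edgeR adjusted p = 0.249; DESeq2 adjusted p = 0.0283). Skeletal muscle markers did not overlap at EOS either. Their sum was 206 and 1257 CPM in cabo and 174 and 345 CPM in IL-27+cabo, against 51.4 and 94.2 CPM in control and 71.2 and 71.5 CPM in IL-27.

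**Figure D2:**
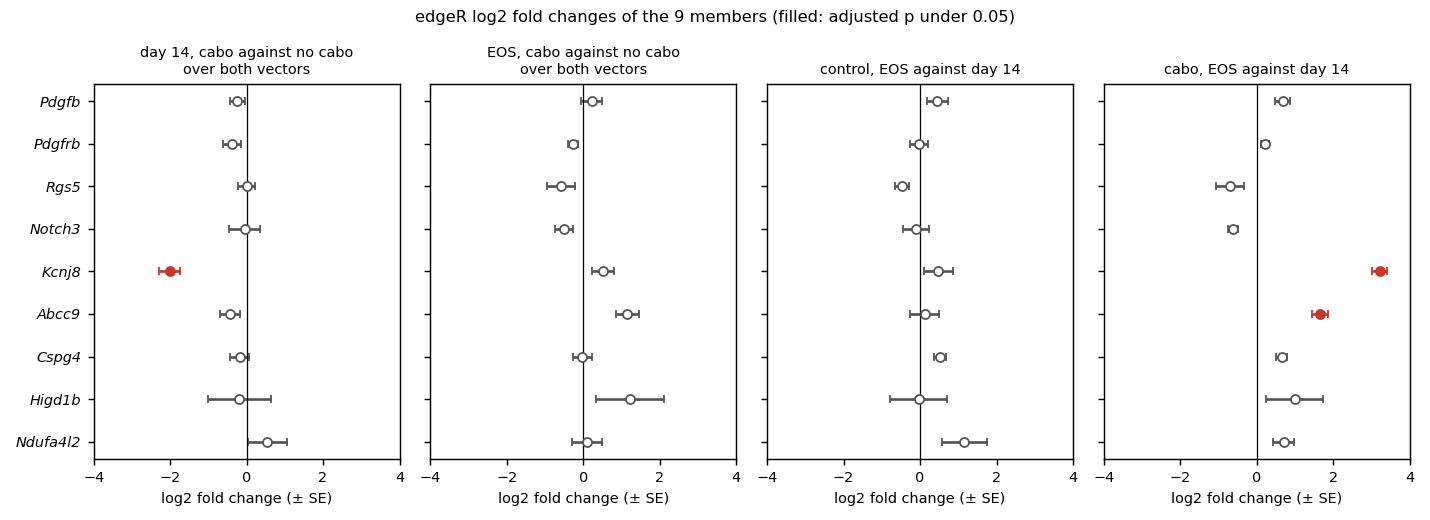
Log2 fold changes of the 9 genes with SE from edgeR in 4 comparisons (horizontal axis), with filled red points at an adjusted p below 0.05. Kcnj8 is at −2.01 with cabo on day 14 and at 3.22 from day 14 to EOS within the cabo group, where Abcc9 at 1.65 is the other filled point.

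The remaining members did not pass the test with cabo on day 14. Against control alone, 4 of 9 members had an unadjusted p below 0.05, beside 18.9% of all genes: Kcnj8, Abcc9 (log2 −0.58, SE 0.22, edgeR adjusted p = 0.213), Pdgfb (−0.49, SE 0.20, edgeR adjusted p = 0.243) and Cspg4 (−0.27, SE 0.11, edgeR adjusted p = 0.243), all lower with cabo. Over both vectors, the differences were −0.24 (SE 0.19) for the ligand Pdgfb, −0.38 (SE 0.23) for its receptor Pdgfrb, −0.06 (SE 0.41) for Notch3, −0.19 (SE 0.24) for Cspg4, 0.00 (SE 0.22) for Rgs5, −0.19 (SE 0.82) for Higd1b and 0.54 (SE 0.52) for Ndufa4l2, with adjusted p of 0.560 or above. The Pdgfrb values of the tumors with cabo ran from 58.3 to 141 CPM (median 112) and those of the tumors without it from 102 to 202 CPM (median 119). Rgs5 ran from 66.5 to 221 CPM (median 101) with cabo and from 75.1 to 143 CPM (median 117) without. Pdgfb ran from 7.12 to 12.6 CPM and from 8.35 to 15.1 CPM, Cspg4 from 9.38 to 21.5 CPM and from 10.4 to 25.8 CPM. For Pdgfb, Pdgfrb, Rgs5 and Cspg4, whose SE was 0.19 to 0.24, the difference seen for Kcnj8 (−2.01) lay more than 4 SE away from the estimate.

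Mouse 20 set the extremes of the IL-27+cabo group on day 14. Its Notch3 was 5.79 CPM beside 35.8 and 38.9 CPM in the other 2 tumors, and its Pdgfrb 58.3 CPM beside 110 and 114 CPM. Its Ndufa4l2, a HIF target gene that encodes a relative of a cytochrome c oxidase subunit, was 13.5 CPM beside 1.80 and 1.90 CPM. The reads of Ndufa4l2 may include those of the overlapping Shmt2. Without mouse 20 the Notch3 difference with cabo was 0.19 in place of −0.06, with no call in either case.

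Within the cabo group, 4 other members had an unadjusted p below 0.05 from day 14 to EOS, as did 17.6% of all genes, and missed the threshold after adjustment. Notch3 was lower by 1.54-fold (log2 −0.63, SE 0.13, edgeR adjusted p = 0.0731), with 54.4, 42.8 and 42.0 CPM on day 14 and 30.5 and 28.7 CPM at EOS. Cspg4 was higher by 1.57-fold (log2 0.65, SE 0.15, edgeR adjusted p = 0.0850), Pdgfb by 1.60-fold (log2 0.68, SE 0.20, edgeR adjusted p = 0.150) and Ndufa4l2 by 1.63-fold (log2 0.70, SE 0.28, edgeR adjusted p = 0.261). DESeq2 called Notch3, Cspg4 and Pdgfb as well as the 2 channel genes, where it called 5.80% of all genes against 2.09% by edgeR.

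Other genes of the vessel wall were read from fixed lists. Among 11 PDGF and Notch pathway genes, 2 were called lower and none higher with cabo on day 14 over both vectors, beside 0.442% of all genes called lower, with a list median of −0.11 beside 0.04 for all genes tested. One was Dll4, the Notch ligand of endothelial tip cells, at 11.99, 12.1 and 13.2 CPM in control, 9.49, 12.7 and 11.3 CPM in IL-27, 1.26, 1.26 and 1.81 CPM in cabo and 0.899, 1.29 and 0.873 CPM in IL-27+cabo. Dll4 was 9.83-fold lower (log2 −3.30, SE 0.19, edgeR adjusted p = 2.53e-05). The other was the Notch target Hey1, named here after its values were seen, which was 3.72-fold lower (log2 −1.90, SE 0.30, edgeR adjusted p = 0.0153). At EOS Dll4 was 18.0 and 13.4 CPM in cabo and 16.8 and 18.8 CPM in IL-27+cabo, against 8.73 and 17.7 CPM in control. The test of the cabo change at EOS against that on day 14 called 2 genes of the list higher, beside 0.260% of all genes, namely Dll4 (log2 3.93, SE 0.31, edgeR adjusted p = 8.56e-06) and Hey1 (log2 3.12, SE 0.42, edgeR adjusted p = 0.00176).

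Of 13 further pericyte markers, 1 was called with cabo on day 14 over both vectors, beside 0.779% of all genes called in either direction, and the list median was −0.10. This was Mcam (CD146), an adhesion molecule shared by pericytes and endothelial cells, which was 55.7, 53.5 and 31.7 CPM in control, 31.7, 28.2 and 50.0 CPM in IL-27, 12.8, 14.0 and 21.2 CPM in cabo and 7.96, 12.7 and 14.7 CPM in IL-27+cabo. Mcam was 3.07-fold lower (log2 −1.62, SE 0.23, edgeR adjusted p = 0.00819). It was the 1 list gene called in the test of the cabo change at EOS against day 14, which called 0.292% of all genes (log2 2.55, SE 0.40, edgeR adjusted p = 0.00625). None of the 10 tested contractile genes of vascular smooth muscle was called in either test, with medians of 0.51 and −0.42.

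Most endothelial markers were at lower values with cabo on day 14, and 6 of 18 passed the test. Over both vectors, 16 of 18 had a negative difference (list median −1.03), 6 were called lower and none higher, beside 0.442% of all genes called lower. The marker with the smallest p was Emcn, an endothelial sialomucin, with a median of 3.19 CPM with cabo and 16.9 CPM without (log2 −2.41, SE 0.21, edgeR adjusted p = 0.000272). The other 5 called were Cldn5, Kdr, Flt1, Tie1 and Robo4 (log2 −2.57 to −1.18). The markers with a positive difference were Vwf (log2 0.17, SE 0.47, edgeR adjusted p = 0.927) and Ptprb (log2 0.42, SE 0.28, edgeR adjusted p = 0.609). The summed level of all 18 markers was 352 to 530 CPM in control and 338 to 426 CPM in IL-27, but 229 to 275 CPM in cabo and 211 to 242 CPM in IL-27+cabo, with no marker at 0 in any tumor. From day 14 to EOS within the cabo group, after dosing had ended, 11 of 18 were called higher, to sums of 520 and 612 CPM, beside 0.945% of all genes called higher. The test of the cabo change at EOS against day 14 called 6 of 18 higher, beside 0.260% of all genes, with a median of 1.80 beside −0.04 for all genes. The part of endothelial content in the Kcnj8 values was not tested.

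Skeletal muscle markers had higher values with cabo on day 14, but over both vectors 0 of 22 were called by edgeR. All 22 had a positive difference (median 3.40) and 20 had an unadjusted p below 0.05, beside 12.6% of all genes. Against control alone, 9 of 22 were called higher, beside 1.89% of all genes called in either direction. The sum of 22 markers was 49.9 to 240 CPM in control and 77.4 to 2554 CPM in IL-27, and 1567 to 2361 CPM in cabo and 2022 to 5908 CPM in IL-27+cabo, so the tumors with and without cabo overlapped through 1 IL-27 tumor. Day 14 IL-27 mouse 8, with a muscle mean of 6.30 on the log2 CPM scale, inside the range of the tumors with cabo (5.39 to 7.37), had the highest Kcnj8 level of the 12 day 14 tumors, 8.51 CPM. EOS cabo mouse 19, with a muscle mean of 5.05, had 10.3 CPM of Kcnj8. The nearest relative of Kcnj8 is Kcnj11, which encodes the pore subunit Kir6.2 of muscle and pancreatic channels. Kcnj11 was 1.52, 2.64 and 2.78 CPM in the day 14 cabo tumors against 0.0820, 0.155 and 0.202 CPM in control, a 15.4-fold rise (log2 3.94, SE 0.44, edgeR adjusted p = 0.00746). It was 3.91, 6.93 and 2.49 CPM in IL-27+cabo and 0.0972, 0.0619 and 2.54 CPM in IL-27. The last of these values was that of mouse 8, which had no cabo, and lay inside the range of the cabo tumors.

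**Figure D3:**
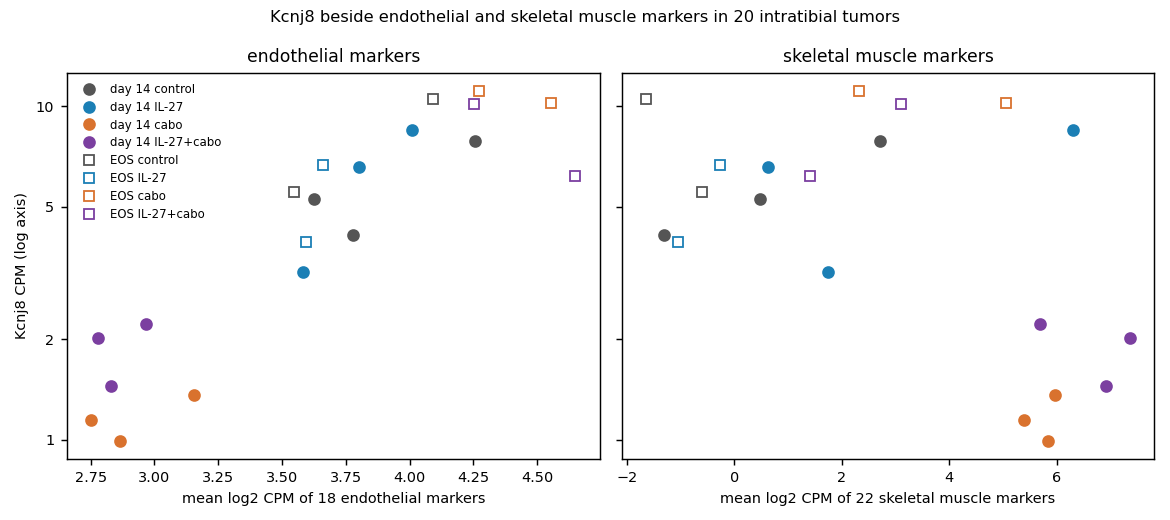
Kcnj8 level in CPM (vertical axis, log scale) against the mean log2 CPM of 18 endothelial markers (left) and of 22 skeletal muscle markers (right), with 1 point for each of the 20 intratibial tumors, filled for day 14 and open for EOS. The 6 day 14 tumors with cabo lie low on the left for endothelial markers and low on the right for muscle markers, while day 14 IL-27 mouse 8 combines a muscle mean of 6.30 with 8.51 CPM.

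IL-27 by itself was not accompanied by a called member in the tibia. On day 14 the differences between IL-27 and control ran from −0.17 (Pdgfb) to 0.42 (Ndufa4l2), and 0 of 18519 genes were called (0%), with 2.76% at an unadjusted p below 0.05 and no member among them. DESeq2 also called no member. Over both oral treatments the members ran from −0.45 (Rgs5) to 0.91 (Higd1b) on day 14, where 0% of 19899 genes were called, and from −0.50 (Kcnj8) to 0.46 (Rgs5) at EOS, where 0% of 20026 were called. Unadjusted p below 0.05 was reached by 4.45% of genes on day 14 and 3.37% at EOS, with no member among them, and DESeq2 called none. Rgs5 at EOS was 89.1 and 299 CPM in the 2 IL-27 tumors and 65.4 to 116 CPM in the other 6, so the high value belonged to a single tumor, mouse 12.

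In the subcutaneous tumors, 6 of the 9 members were called with IL-27, where 20% of 19360 genes were called in either direction, 3.52% higher and 16.5% lower. Rgs5 was 63.4 and 70.3 CPM in control and 183 and 889 CPM in IL-27 tumors, 8.02-fold higher (log2 3.00, SE 0.71, edgeR adjusted p = 0.0272). Abcc9 was 10.4 and 20.3 CPM against 37.7 and 66.9 CPM, 3.41-fold higher (log2 1.77, SE 0.47, edgeR adjusted p = 0.0408). As counted, without removal of the trend with GC content described below, Cspg4 showed the largest difference of the members. It went from 13.4 and 25.3 CPM to 1.09 and 1.28 CPM, or 16.3-fold lower (log2 −4.03, SE 0.51, edgeR adjusted p = 0.00280). In each of these genes the 2 groups did not overlap.

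The ligand, its receptor and Notch3 were lower with IL-27 under the skin. Pdgfb was 21.3 and 17.0 CPM in control and 3.04 and 6.80 CPM in IL-27, or 3.89-fold lower (log2 −1.96, SE 0.50, edgeR adjusted p = 0.0349). Pdgfrb was 91.3 and 76.5 CPM against 19.2 and 30.3 CPM, 3.39-fold lower (log2 −1.76, SE 0.36, edgeR adjusted p = 0.0158). Notch3 was 24.98 and 36.8 CPM against 5.94 and 10.4 CPM, 3.77-fold lower (log2 −1.91, SE 0.44, edgeR adjusted p = 0.0245). Ndufa4l2 was 4.16 and 1.66 CPM against 0.481 and 0.821 CPM (log2 −2.16, SE 0.70, edgeR adjusted p = 0.0730). Kcnj8 (0.50, SE 0.55) and Higd1b (0.72, SE 1.01) overlapped between the groups. Of the relatives of these genes, Pdgfa, a second ligand of the family, was 4.45-fold lower (edgeR adjusted p = 0.0238) and Notch4, an endothelial Notch receptor, 3.85-fold lower (edgeR adjusted p = 0.0297), the 2 called of 10 relatives. That share equals the 20% of all genes called in this comparison.

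These differences ran with the base composition of the transcripts. The 2 members that were called higher had the lowest GC content of their longest transcript, 41.1% for Rgs5 and 46.2% for Abcc9. The 4 that were called lower had 54.9% (Pdgfrb) to 60.0% (Pdgfb). All genes tested showed the same trend: within 2 percentage points of GC content of Rgs5 the median difference was 0.86 over 2588 genes, and around Notch3 it was −2.94 over 1459 genes. Notch3 (−1.91), Pdgfb (−1.96) and Ndufa4l2 (−2.16) were less lowered than the median gene of like GC content (−2.94, −3.06 and −3.17) but inside the quartiles of those genes. Cspg4 (−4.03 against −2.83) and Pdgfrb (−1.76 against −1.35) were lowered more than that median, also inside the quartiles. Rgs5 (3.00 against 0.86) and Abcc9 (1.77 against 0.44) lay above the upper quartile, which was 1.21 for Rgs5 and 0.89 for Abcc9. So did the uncalled Kcnj8 (0.50 against −0.83) and Higd1b (0.72 against −0.58), with upper quartiles of −0.09 and 0.11. With the dependence of every library on transcript GC and length taken out, 0 of 9 members were called (8.62% of genes were), and Notch3, Pdgfb and Ndufa4l2 took the opposite sign, at 0.77 (SE 0.39), 0.83 (SE 0.43) and 0.91 (SE 0.60). Rgs5 then stood at 2.02 (SE 0.67, adjusted p = 0.118), Abcc9 at 1.32 (SE 0.37, adjusted p = 0.0750) and Cspg4 at −1.40 (SE 0.40, adjusted p = 0.0799), while Pdgfrb went from −1.76 to −0.30 (SE 0.32, adjusted p = 0.660). Kcnj8 went to 1.37 (SE 0.49, edgeR adjusted p = 0.142) and Higd1b to 1.45 (SE 0.95, edgeR adjusted p = 0.435).

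**Figure D4:**
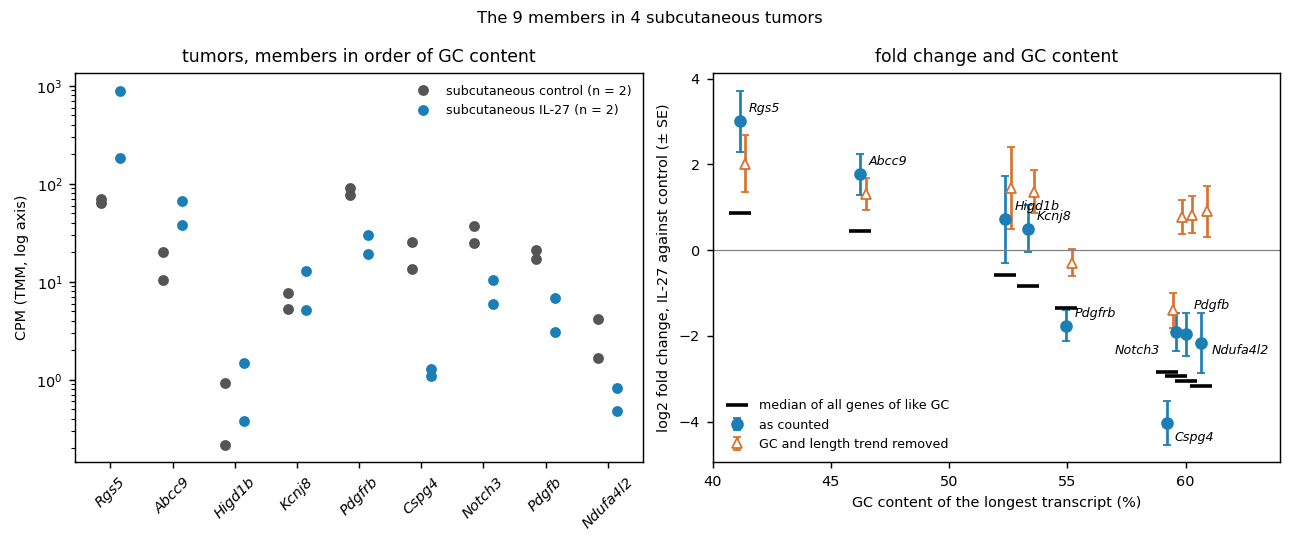
Left, CPM (log scale) of the 9 genes in the 2 control and 2 IL-27 subcutaneous tumors, with genes in order of GC content. Right, log2 fold change with SE against the GC content of the longest transcript, as counted (circles) and after that dependence was taken out (triangles), with black dashes at the median of all genes of like GC content. The circles fall from 3.00 at 41.1% to −1.96 at 60.0%, with Cspg4 lowest at −4.03, and the triangles of Notch3, Pdgfb and Ndufa4l2 lie above 0.

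Leaving out a single subcutaneous tumor moved the number of members called to between 1 and 5, the lowest without control tumor 1, when only Cspg4 was called, and 3 without IL-27 tumor 1. Cspg4 was called in all 4 such refits. The Rgs5 difference ran from 1.44 without IL-27 tumor 2, the one at 889 CPM, to 3.72 without IL-27 tumor 1, and its call was lost in 3 of the 4 refits (adjusted p up to 0.183), all but the last named. The calls of Pdgfb and Notch3 were lost in 3 of 4 refits and those of Pdgfrb and Abcc9 in 2 of 4. Skeletal muscle markers differed between these groups too, with 20 of 22 called higher with IL-27, beside 3.52% of all genes, and sums of 107 and 56.8 CPM in control against 1497 and 501 CPM. Fibroblast markers summed to 7789 and 9157 CPM in control and 6844 and 11949 CPM in IL-27, with 2 of 10 called higher and 2 lower, beside 3.52% and 16.5% of all genes. The part of muscle in the member values was not tested here.

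Across the 20 intratibial tumors, 36 pairs of members were correlated on the log2 CPM scale. The permutations shuffled all 20 tumors without regard to their 8 groups, so these p-values also reflect differences between group means. Pdgfrb and Notch3 were the most alike pair (Pearson r = 0.83, permutation p = 3e-05, adjusted p = 0.00108; Spearman rho = 0.69, permutation p = 0.001, adjusted p = 0.0198). Their r was 0.87 within the 8 groups and 0.59 without the 2 tumors farthest from the Pdgfrb median. Kcnj8 and Abcc9 correlated with r = 0.66 (permutation p = 0.0015, adjusted p = 0.027; rho = 0.68, permutation p = 0.0015, adjusted p = 0.0198) and r = 0.63 without the 2 farthest tumors. Within groups r was 0.27, so that relation rested on differences between groups. No other pair had an adjusted p below 0.05 for Pearson's r, but by Spearman's rho 3 further pairs did, each with Pdgfb. Pdgfb and Kcnj8 had rho = 0.66 (permutation p = 0.0022, adjusted p = 0.0198) and r = 0.57 (permutation p = 0.0088, adjusted p = 0.0792; 0.59 without the 2 farthest tumors). Pdgfb and Abcc9 had rho = 0.66 (permutation p = 0.002, adjusted p = 0.0198) and r = 0.60 (permutation p = 0.0062, adjusted p = 0.0744; 0.51 without the 2 farthest). Pdgfb and Higd1b had rho = 0.64 (permutation p = 0.0034, adjusted p = 0.0245) and r = 0.45 (permutation p = 0.05, adjusted p = 0.225; 0.53 without the 2 farthest). Within groups r was 0.096, 0.27 and 0.31 for these 3 pairs.

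Rgs5 and Pdgfrb resembled genes outside the mural cell lists most closely over these tumors, among 12612 genes with a mean above 1 on the log2 CPM scale. The highest r for Rgs5 were with Ugcg (0.79), Mpp2 (0.77) and Slc45a3 (0.75). Those for Pdgfrb were with Lrrk2 (0.92), Adcy6 (0.92) and Slc22a23 (0.89). Within groups these values were 0.65 to 0.93. The tumors share normalization and base composition differences, and the values describe these libraries.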

How the data were processed

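Poly(A) RNA of 24 tumors was sequenced with a stranded TruSeq mRNA kit. The authors deposited raw gene counts by Ensembl identifier. The authors mapped reads with HISAT2 to the mouse genome and computed expression levels with StringTie. Which program wrote these counts and its strand setting are not given in the sources used here, and the submitters' processing notes name the human build GRCh38 although all identifiers are mouse. GENCODE M21 (GRCm38) gave symbols for 55141 of 55401 rows. Of low counts, 30.4 to 35.5% were multiples of 4, so division by 4 was tried. Depth was 63729005 to 83782258 counts. The floors given for Higd1b cover counting error only, whereas the SE of a fold change takes in the spread between tumors.

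Each comparison used edgeR 4.0.16 (R 4.3.3) with filterByExpr, TMM, the quasi-likelihood test and Benjamini-Hochberg adjustment over all genes tested. Comparisons against one group or time used only those groups, and comparisons over both vectors a 4-group or 8-group model. log2 CPM used a prior count of 2. DESeq2 1.42.0, RLE factors, no filter, removal of GC content and length trends (splines, 5 df), the muscle mean as a covariate, all groups in 1 fit, the replicate number as a block and leaving out each tumor were alternatives. The scripts were tested on simulated data. Correlations used 100000 permutations, two-sided, over 36 pairs.

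The members and lists were chosen with earlier results of these data known. All 9 members are named. Other genes are named where they are relatives of a member or have the smallest p of a list, or, for Hey1, Vwf, Ptprb and the other endothelial markers called with cabo, after their values were seen. The genes most like Rgs5 and Pdgfrb are the 3 with the highest Pearson r, and those for Notch3 are not reported here. The promoters in RefSeq covered 5 members.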

Additional observations from a re-analysis of the deposited data

Results flagged for a closer look

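The Kcnj8 difference between tumors with and without cabo was not the same on day 14 and at EOS. The EOS tumors with cabo were taken after dosing had ended, on days that are not given. The cabo change at EOS minus that on day 14 was 2.51 on the log2 scale (SE 0.43, edgeR adjusted p = 0.0125), with all 6 day 14 tumors with cabo below the 6 without it and the 4 EOS tumors with cabo between 6.20 and 11.1 CPM beside 3.91 to 10.5 CPM without. In the same test 6 of 18 endothelial markers were called higher, beside 0.260% of all genes, and 12 were not called. Their part was not tested. No group held 4 or more tumors, so none was screened for a tumor far from the rest.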

How the results depend on the processing

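Of 203 recomputed counts of members called, 181 stayed within 1.5 times the reported count. In the subcutaneous comparison (6 called) the count was 3 with no filter on low counts, 0 with the GC content and length trend removed and 2 with the replicate block and that trend removed together, where 10.8%, 8.62% and 12.3% of all genes were called in place of 20%. Under those last 2 settings Pdgfb changed sign (0.83 and 0.74), as did Notch3 (0.77 and 0.71) and Ndufa4l2 (0.91 and 0.92). With the replicate block alone 6 members were called. No label ties the numbers 1 and 2 of the subcutaneous tumors across groups, and with 2 per group the data cannot settle it: the correlation across 19360 genes of same-numbered deviations was 0.0313, and the block raised the genes called to 21.9%.

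With the muscle mean as a covariate, the day 14 counts fell to 0 for cabo against control (0% of all genes called) and 0 over both vectors (0.0653% of all genes). Rgs5 (−0.072) and Notch3 (0.41) changed sign over both vectors in that fit. DESeq2 called 1 member for IL-27+cabo against control on day 14 (1.53% of all genes), 1 for cabo at EOS (4.04%) and 5 from day 14 to EOS in the cabo group (5.80%). It called 1 over that time in the IL-27+cabo group (1.16%) and 2 in the difference of cabo changes (0.863%), where removal of the GC trend also gave 2 (0.431%). From day 14 to EOS in the cabo group the count was 1 with no filter (0.386% of all genes) and 1 with all groups in 1 fit (0.246%). The fit with all groups gave 1 in the IL-27+cabo group (0.329%). The cause of these moves was not tested.

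Leaving out 1 tumor at a time gave 1 to 5 subcutaneous calls, 0 to 1 for cabo against control on day 14, 1 to 2 from day 14 to EOS in the cabo group and 0 to 1 in the difference of cabo changes. Uncalled values changed sign in some of these refits: subcutaneous Kcnj8 (−0.32 to 1.00) and Higd1b (−0.59 to 2.12), day 14 Rgs5 (−0.16 to 0.14) and Notch3 (−0.22 to 0.28) over both vectors, and from day 14 to EOS Kcnj8 in control (−0.060 to 0.87) and IL-27 (−0.63 to 0.14) and Abcc9 in control (−0.60 to 0.60). Groups of 2 left with 1 tumor were assumed to vary like the other group. Depth limits Higd1b most, with 0 to 116 counts.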
